A study of Mus musculus with 5 samples.

Results

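The 7 genes Mbp, Mobp, Mog, Mag, Cnp, Mal and Cldn11 encode proteins of myelin. Their transcripts were followed among the mouse brain RNAs eluted from the protein MA-Brent-1 in an in vitro binding experiment. The genes are 7 of the 18193 that the annotation names on the array. All probe sets annotated with 1 of these symbols were taken, which gave 21 of the 45101 on the array: 8 for Mbp, 5 for Mobp, 3 for Cnp, 2 for Mal and 1 each for Mog, Mag and Cldn11. 19 of the 21 passed a filter on low signal, and the other 2 are both Mobp probe sets.

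The study put RNA on 5 Affymetrix mouse expression arrays, 1 array per sample. RNA eluted from deiminated MA-Brent-1 was on 2 arrays, RNA eluted from the non-deiminated protein on 2 arrays, and the starting RNA, which saw no binding and is called input here, on 1 array. All were labelled as total RNA from brain; strain, age, sex and extraction method are not given in the labels. The titles name the protein MA-Brent-1 for deiminated replicate 1 and non-deiminated replicate 2, and REFP2 for deiminated replicate 2 and non-deiminated replicate 1, while the descriptions name MA-Brent-1 for all 4. Binding took place outside the cell, so the values describe RNAs of a pool that were eluted from the protein. None of the 5 arrays held RNA from an elution without the protein, so binding was not tested against carry-over without it. Replicate numbers only name arrays and pair none of them, and just 1 title speaks of a biological repeat, so the p-values cover only how far these samples differ, and that spread may be technical.

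Myelin is the membrane that oligodendrocytes wrap around axons in the brain. Myelin basic protein, the product of Mbp, and the Mobp protein lie on the inner face of that membrane and hold its layers together. Mog and Mag encode immunoglobulin-like proteins of the outer and the inner myelin surface, Cnp a phosphodiesterase of the uncompacted cytoplasm, Mal a lipid-raft protein of membrane sorting and Cldn11 the claudin of myelin tight junctions. Deimination turns arginine in a protein into citrulline, and myelin basic protein is a classic substrate of it, although here the deiminated protein was MA-Brent-1, of the REF/Aly family of mRNA export adaptors. Mbp and Mobp mRNAs are known to travel in granules into oligodendrocyte processes and to be translated at the myelin sheath.

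The signals are linear MAS5 intensities that had been scaled so that the trimmed mean was 150 on every array, and so give each RNA relative to the other RNA on its array rather than an amount. Over all probe sets the median signal was 29.9 and 37.6 with the deiminated protein, 30.5 and 41.5 with the non-deiminated protein and 102 in input RNA. Hybridisation controls, which are transcripts added in fixed amounts, averaged 10.60 and 12.60 log2 with the deiminated protein, 10.09 and 13.04 with the non-deiminated protein and 17.04 in input RNA over 18 probe sets. Deiminated replicate 2 and non-deiminated replicate 2 thus had the higher controls of their groups. Control ratios of 3' over 5' signal were 29.8 to 55.6 on the bound arrays against 234 on the input array for beta-actin, and 17.4 to 31.9 against 2.71 for Gapdh. The input array stood apart from the 4 bound arrays in all these measures, and their part in the differences from input was not tested.

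Each comparison was fitted with limma on log2(signal + 4.18) over all 27022 probe sets past the filter, and a probe set with a Benjamini-Hochberg adjusted p under 0.05 is referred to as called. A log2 difference is bound minus input, or deiminated minus non-deiminated, and the error after ± is limma's standard error (n = 2 deiminated, 2 non-deiminated and 1 input array). The number of arrays limits the precision, and the input array's own spread could not be measured. On this log scale the folds of dim probe sets are understated.

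Against input, most myelin probe sets were higher in bound RNA, and between the deiminated and the non-deiminated protein none was called. With the deiminated protein, 12 of the 19 probe sets were called higher than input and 1 lower, where 24.9% of all 27022 probe sets were called higher and 26.6% lower. For RNA of the non-deiminated protein the counts were also 12 higher and 1 lower, where the shares over all probe sets were 24.7% and 25.7%. The median log2 difference of the 19 was 1.34 for deiminated and 1.41 for non-deiminated RNA, and over all probe sets it was -0.21 and -0.19. Under quantile normalisation the median of the 19 exceeded that of all probe sets by 1.63 for deiminated and 1.31 for non-deiminated RNA. Under cyclic loess normalisation the excess was 0.75 and 0.94. The shares over all probe sets depended on the signal filter, and many of the 19 are bright. With a stricter filter, at the 60th percentile of mean signal, 6153 of 18015 probe sets were called higher for deiminated and 6085 for non-deiminated RNA. The median over all was then 0.29 for each, and the excess of the 19 was 1.05 and 1.12. Both comparisons use the same input array. Several probe sets are annotated with the same gene and may read shared transcripts, so the 19 are not 19 independent measurements.

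The 8 Mbp probe sets did not move together. 3 were called higher than input with both proteins, 1 was called lower with both, and 4 were not called. Affymetrix marks with _x_at a probe set that shares probes with other sequences, with _s_at one whose probes match several transcripts, which may be of different genes, and with _a_at one that matches several transcripts of the same gene. Mbp makes several splice forms of myelin basic protein, and from an upstream start the longer Golli transcripts, which are also found in neurons and immune cells. Which of these each probe set reads was not analysed here.

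The sharpest gain among the Mbp probe sets was at 1419646_a_at, annotated with the RefSeq mRNA NM_010777. It read 5654 and 8246 with the deiminated protein, 5804 and 7553 with the non-deiminated protein and 415 in input RNA. All 4 bound arrays lay far above the input array, and the bound groups overlapped. This was a log2 difference of 4.03 ± 0.47 for deiminated RNA, or 16.3-fold (adjusted p = 3.36e-05), and 3.98 ± 0.47 for non-deiminated RNA, or 15.8-fold (adjusted p = 3.79e-05). The direct difference between the proteins was 0.04 ± 0.38, with an interval from -0.78 to 0.87.

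Mbp 1433532_a_at was the other bright probe set called against input. Its signal was 11406 and 22051 with the deiminated protein, 9752 and 23222 with the non-deiminated protein and 2527 in input RNA. In each bound group the array with the higher hybridisation controls was the higher one, and all 4 exceeded the input array. The log2 difference from input was 2.65 ± 0.68 for deiminated (adjusted p = 0.00710) and 2.57 ± 0.68 for non-deiminated RNA (adjusted p = 0.00871). Without deiminated replicate 2 the first was 2.17 with an adjusted p of 0.101, and under cyclic loess normalisation both calls were lost (0.98, adjusted p = 0.0892, and 0.99, adjusted p = 0.0870). Between the proteins it was 0.08 ± 0.55.

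The 3 brightest Mbp probe sets are all of the _x_at kind, and none was called at the deposited scaling. Mbp 1456228_x_at, which has the highest mean signal and stands for the gene, read 14068 and 33403 with the deiminated protein, 10834 and 42152.5 with the non-deiminated protein and 31935 in input RNA. The input value lay within the range of the bound arrays, with a log2 difference of -0.56 ± 0.90 for deiminated and -0.58 ± 0.90 for non-deiminated RNA. Under cyclic loess normalisation this probe set was called lower than input with both proteins, at -2.20 and -2.12. Mbp 1436201_x_at read 11607 and 29239 with the deiminated protein, 9639 and 31965 with the non-deiminated protein and 8534 in input RNA. Mbp 1454651_x_at was close to it in pattern, with 11768 and 24851 with the deiminated protein, 9272 and 25738 with the non-deiminated protein and 8249 in input RNA. All 4 bound arrays exceeded the input array at both, by 1.11 ± 0.82 and 1.05 ± 0.75 log2 for deiminated and by 1.04 ± 0.82 and 0.90 ± 0.75 log2 for non-deiminated RNA, and neither passed the test (adjusted p = 0.251 to 0.325). Without non-deiminated replicate 1, the lowest bound array at these probe sets, the non-deiminated difference was 1.90 (adjusted p = 0.0314) at 1436201_x_at and 1.64 (adjusted p = 0.0472) at 1454651_x_at.

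The Mbp probe set that went the other way was 1451961_a_at, annotated with L07509. It read 59.4 and 13.7 with the deiminated protein, 98.9 and 41.3 with the non-deiminated protein and 483 in input RNA. Every bound array was below input, and the bound groups overlapped. The log2 difference from input was -3.85 ± 0.79 for deiminated (14.5-fold lower, adjusted p = 0.00208) and -2.83 ± 0.79 for non-deiminated RNA (7.12-fold lower, adjusted p = 0.0113). Leaving out deiminated replicate 1 or 2 gave -4.77 or -2.94 for deiminated RNA, and leaving out non-deiminated replicate 1 or 2 gave -3.42 or -2.24 for non-deiminated RNA. For non-deiminated RNA the call was lost under median centring (-1.41, adjusted p = 0.211) and cyclic loess (-2.25, adjusted p = 0.0617). Scaling to the hybridisation controls turned the sign, to 1.58 and 2.64, while the median of all probe sets went to 5.23 and 5.28 under it. It was also the member with the largest difference in size between the proteins, -1.02 ± 0.64, which was not called and whose interval ran from -2.42 to 0.37.

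A pair of dimmer Mbp probe sets completes the gene. Mbp 1425264_s_at read 142 and 121 with the deiminated protein, 179.8 and 151 with the non-deiminated protein and 49.0 in input RNA. It was called higher in deiminated RNA (1.34 ± 0.50, adjusted p = 0.0375) and in non-deiminated RNA (1.67 ± 0.50, adjusted p = 0.0153), and both deiminated arrays were below both non-deiminated arrays. The first call was lost without deiminated replicate 1 (1.23, adjusted p = 0.202) or replicate 2 (1.46, adjusted p = 0.106). Mbp 1425263_a_at read 240.5 and 361 with the deiminated protein, 276 and 139 with the non-deiminated protein and 220.2 in input RNA. Its differences from input were 0.41 ± 0.49 for deiminated and -0.16 ± 0.49 for non-deiminated RNA, and the difference of 0.58 ± 0.40 between the proteins was the highest of the 19 members without being called.

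**Figure D1:**
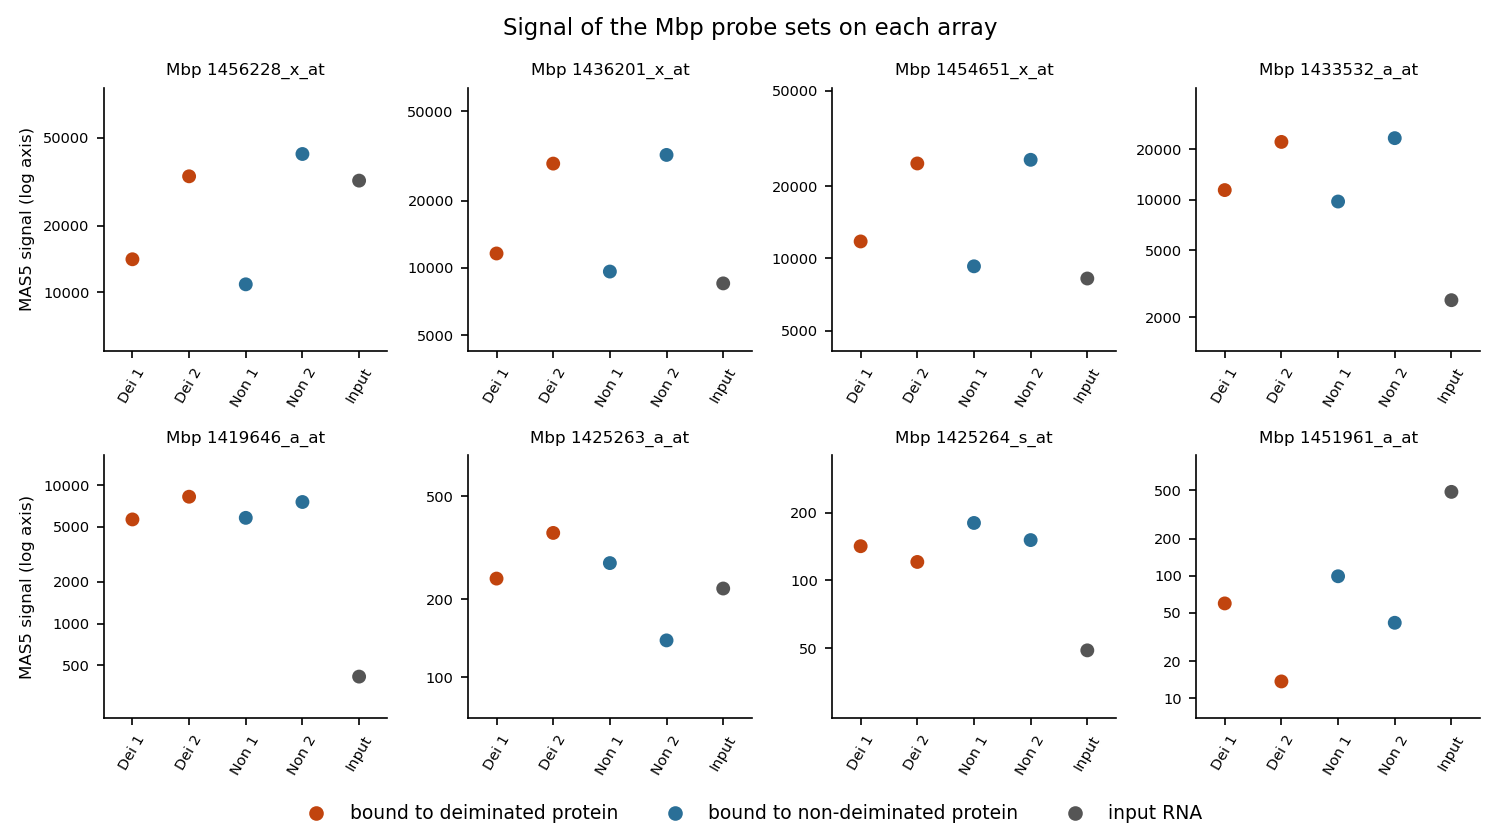
Signal of the 8 Mbp probe sets, 1 panel each, with the MAS5 signal on a log axis of its own range and 1 point per array: Dei 1 and Dei 2 are the deiminated arrays, Non 1 and Non 2 the non-deiminated arrays. At 1419646_a_at the input point (415) lies far below the 4 bound points, at 1451961_a_at it lies above them (483), and at 1456228_x_at it lies among them (31935).

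Mobp, whose protein also helps to compact myelin, was higher than input in all 3 probe sets that passed the filter. Mobp 1433785_at, its brightest, read 5431 and 6485 with the deiminated protein, 5002 and 5249.7 with the non-deiminated protein and 586 in input RNA. The bound arrays were close together and all far above input, 3.33 ± 0.43 log2 or 10.1-fold for deiminated (adjusted p = 8.53e-05) and 3.12 ± 0.43 log2 or 8.68-fold for non-deiminated RNA (adjusted p = 0.000147). Mobp 1421010_at read 2561 and 1869.65 with the deiminated protein, 3045 and 1891 with the non-deiminated protein and 550.1 in input RNA, which gave 1.98 ± 0.43 for deiminated (adjusted p = 0.00292) and 2.12 ± 0.43 for non-deiminated RNA (adjusted p = 0.00207). Mobp 1436263_at read 787 and 1018 with the deiminated protein, 526 and 779 with the non-deiminated protein and 165 in input RNA. Its differences from input were 2.41 ± 0.40 for deiminated (adjusted p = 0.000495) and 1.93 ± 0.40 for non-deiminated RNA (adjusted p = 0.00227), and both deiminated arrays were above both non-deiminated arrays. Under cyclic loess normalisation of the arrays the call at 1421010_at was lost for deiminated (0.51, adjusted p = 0.336) and non-deiminated RNA (0.69, adjusted p = 0.202), and that at 1436263_at for non-deiminated RNA (0.71, adjusted p = 0.189). The 3 sets did not share a direction between the proteins, with 0.21 ± 0.35 at 1433785_at, -0.13 ± 0.35 at 1421010_at and 0.48 ± 0.33 at 1436263_at, none of them called. Of the 2 Mobp probe sets under the filter, 1450088_a_at read 25.4 and 24.1 with the deiminated protein, 29.3 and 11.4 with the non-deiminated protein and 7.19 in input RNA. The other, 1441308_at, read 3.71 to 5.43 on the bound arrays and 6.39 in input RNA, and without the filter neither was called in any of the 3 comparisons. Against input that fit gave 1.35 ± 1.02 for deiminated RNA (adjusted p = 0.292) and 1.01 ± 1.02 for non-deiminated RNA (adjusted p = 0.439) at 1450088_a_at, and -0.37 ± 0.58 (adjusted p = 0.623) and -0.22 ± 0.58 (adjusted p = 0.779) at 1441308_at.

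Mag and Mog, the surface proteins of myelin, showed the same ordering of bound over input, each with 1 probe set. Mag read 474 and 278 with the deiminated protein, 551 and 461 with the non-deiminated protein and 17.9 in input RNA. All 4 bound arrays were above input, by 4.05 ± 0.45 log2 for deiminated (adjusted p = 2.36e-05) and 4.52 ± 0.45 log2 for non-deiminated RNA (adjusted p = 1.05e-05). The input value, at 4.47 log2, lay under the filter's level of 4.89, so Mag passed through its bound arrays, and the size of its difference depends on the pseudocount (3.46 for deiminated and 3.91 for non-deiminated RNA with one of 16.7). Between the proteins Mag differed by -0.47 ± 0.37, and the groups overlapped. Mog read 178 and 226 with the deiminated protein, 182 and 238 with the non-deiminated protein and 28.8 in input RNA. All 4 bound arrays were above input, by 2.64 ± 0.48 for deiminated (adjusted p = 0.000965) and 2.69 ± 0.48 for non-deiminated RNA (adjusted p = 0.000883), with -0.05 ± 0.39 between the proteins.

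The 3 Cnp probe sets also differed among themselves, and at the deposited scaling none was called lower than input. Cnp 1418980_a_at read 853 and 879.99 with the deiminated protein, 948 and 957 with the non-deiminated protein and 181 in input RNA, so the replicates agreed closely and lay well above input. It was called at 2.24 ± 0.36 for deiminated (adjusted p = 0.000424) and 2.37 ± 0.36 for non-deiminated RNA (adjusted p = 0.000287), and at -0.14 ± 0.30 between the proteins it was not, although both deiminated arrays were below both non-deiminated arrays. Under cyclic loess the call for deiminated RNA was lost (0.93, adjusted p = 0.0536). Cnp 1437341_x_at, the brightest, read 9132 and 16269.9 with the deiminated protein, 6653 and 20135 with the non-deiminated protein and 16094 in input RNA. Like the brightest Mbp probe set it had its input value inside the bound range, with -0.40 ± 0.73 for deiminated and -0.48 ± 0.73 for non-deiminated RNA. Under cyclic loess Cnp 1437341_x_at was called lower than input with both proteins (-2.07, adjusted p = 0.00613, and -2.06, adjusted p = 0.00662). Cnp 1449296_a_at read 97.1 and 122 with the deiminated protein, 119.9 and 178 with the non-deiminated protein and 52.4 in input RNA. It was called for non-deiminated RNA (1.41 ± 0.53, adjusted p = 0.0417) and not for deiminated RNA (1.00 ± 0.53, adjusted p = 0.130), and the difference between the proteins, -0.41 ± 0.43, was not called. The call for non-deiminated RNA was lost without deiminated replicate 1 (adjusted p = 0.0765), deiminated replicate 2 (0.0776) or non-deiminated replicate 2 (0.107, at 1.13).

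Mal and Cldn11, which act in membrane sorting and in the tight junctions between myelin layers, had smaller differences from input. Mal 1432558_a_at read 903 and 1071 with the deiminated protein, 841 and 868 with the non-deiminated protein and 412 in input RNA. It was called for deiminated (1.25 ± 0.37, adjusted p = 0.0139) and for non-deiminated RNA (1.05 ± 0.37, adjusted p = 0.0313), and both deiminated arrays were above both non-deiminated arrays, by 0.20 ± 0.30. Mal 1417275_at read 547 and 361 with the deiminated protein, 451 and 218 with the non-deiminated protein and 169 in input RNA, with the lower array of each group being the one with the higher controls. It was called for deiminated RNA (1.37 ± 0.48, adjusted p = 0.0299) and not for non-deiminated RNA (0.88 ± 0.48, adjusted p = 0.140). Cldn11 read 653 and 493 with the deiminated protein, 537 and 831 with the non-deiminated protein and 259 in input RNA. The bound groups overlapped and all 4 arrays exceeded input, by 1.12 ± 0.41 for deiminated (adjusted p = 0.0353) and 1.35 ± 0.41 for non-deiminated RNA (adjusted p = 0.0161).

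These smaller calls rest on few arrays. Under cyclic loess normalisation Mal 1432558_a_at had -0.11 for deiminated and -0.28 for non-deiminated RNA, and Cldn11 had -0.08 for deiminated RNA, so their direction also turned with the scaling. For deiminated RNA, Mal 1432558_a_at was lost without deiminated replicate 1 (1.37, adjusted p = 0.0504) or 2 (1.13, adjusted p = 0.105), Cldn11 without replicate 1 (0.92, adjusted p = 0.196) or 2 (1.32, adjusted p = 0.0525), and Mal 1417275_at without replicate 1 (1.08, adjusted p = 0.148). For non-deiminated RNA, Mal 1432558_a_at was lost without deiminated replicate 1 (adjusted p = 0.0714) or 2 (0.0726), and Mal 1417275_at was gained without non-deiminated replicate 2 (1.39, adjusted p = 0.00751). Without a variance trend in the fit, the calls for deiminated RNA at Mbp 1425264_s_at, both Mal probe sets and Cldn11 and those for non-deiminated RNA at Cnp 1449296_a_at, Mal 1432558_a_at and Cldn11 were lost (adjusted p = 0.0561 to 0.120). Scaling to the hybridisation controls lost the same 7 and that of Mobp 1436263_at for non-deiminated RNA (adjusted p = 0.0540 to 0.0837). Quantile normalisation lost Mal 1432558_a_at with both proteins (0.64, adjusted p = 0.111, and 0.46, adjusted p = 0.240), and cyclic loess Mal 1417275_at for deiminated RNA (0.49, adjusted p = 0.415) and Cldn11 for non-deiminated RNA (0.17, adjusted p = 0.758). Mag, Mog, Mbp 1419646_a_at and Mobp 1433785_at kept their calls in both comparisons under all 14 alternatives run for them, although cyclic loess lowered Mbp 1419646_a_at to 2.44 and 2.46 and Mobp 1433785_at to 1.75 and 1.60.

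**Figure D2:**
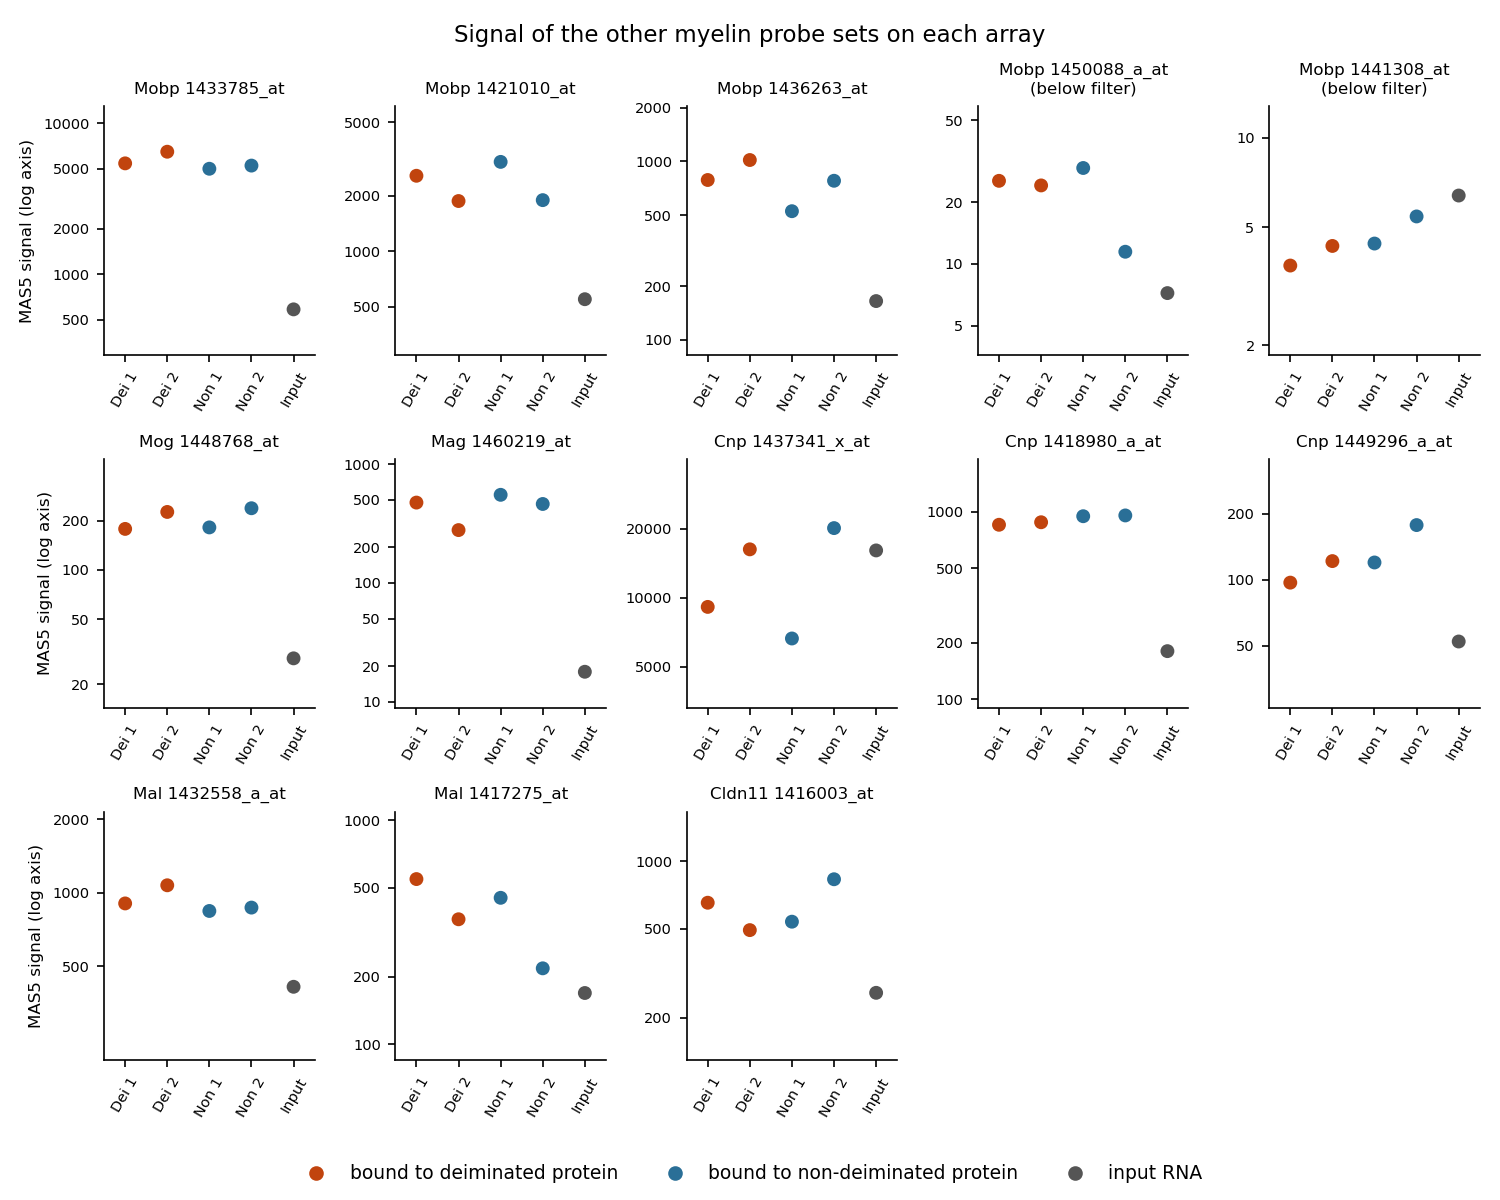
Signal of the 13 probe sets of Mobp, Mog, Mag, Cnp, Mal and Cldn11, 1 panel each, with the MAS5 signal on a log axis of its own range and 1 point per array (Dei 1 and Dei 2 deiminated, Non 1 and Non 2 non-deiminated). The input point is the lowest in every panel except Cnp 1437341_x_at, where it lies among the bound points (16094), and Mobp 1441308_at, a probe set under the filter where it is the highest (6.39).

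Counted array by array, all 4 bound arrays were above the input array at 15 of the 19 probe sets and below it at 1, with 3 in between. Over all 27022 probe sets, 39.1% had all 4 bound arrays above input and 45.6% had all 4 below. With each gene given by its probe set of highest mean signal, 5 of the 7 genes were called higher with each protein and 0 lower. Over 13055 genes, 29.5% were called higher and 22.4% lower for deiminated RNA, and 29.2% and 21.3% for non-deiminated RNA. The gene-level median was 1.25 for deiminated and 1.35 for non-deiminated RNA, beside 0.11 and 0.12 over all genes. Under cyclic loess 3 genes were called higher with each protein and 2, Mbp and Cnp, lower. The median was then -0.08 and 0.17, beside -0.21 and -0.23 over all genes. Over all 27022 probe sets, cyclic loess called 10803 for deiminated RNA, 6144 of them higher, and 10518 for non-deiminated RNA, 6021 of them higher. At the deposited scaling Mbp and Cnp are the 2 genes not called. Each is given by an _x_at probe set, and other probe sets of both were called higher. None of the 4 _x_at probe sets of these genes was called against input at that scaling, against 12 higher and 1 lower of the other 15. Over the array, _x_at probe sets were called about as often as the rest, 27.3% higher and 24.3% lower of 1777 for deiminated RNA, beside 24.8% and 26.8% of the 25245 others.

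Deimination of MA-Brent-1 is the comparison the study was built on, and it moved no myelin probe set past the test. Of the 19, 0 were called, as 0% of all 27022 probe sets and 0% of all 13055 genes were. 0 of the 19 had an unadjusted p under 0.05, the smallest being 0.137, beside 356 over the whole table, and the adjusted p was 0.9999 for each. The differences were positive at 11 and negative at 8, with a median of 0.04 beside -0.01 over all probe sets. The groups did not overlap at 5 probe sets. At Mobp 1433785_at, Mobp 1436263_at and Mal 1432558_a_at both deiminated arrays were higher, which holds for 11% of all probe sets. At Mbp 1425264_s_at and Cnp 1418980_a_at both were lower, which holds for 13.1%.

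Failing the test does not show that the proteins held these RNAs alike, and the intervals give what the data allow. The 95% interval of the difference lay within 2-fold either way at 7 probe sets (Mbp 1419646_a_at, Mobp 1433785_at, Mobp 1421010_at, Mog, Cnp 1418980_a_at, Mal 1432558_a_at and Cldn11), beside 24.2% of all probe sets. It lay within 4-fold at 18 of the 19, the exception being Mbp 1451961_a_at, beside 83.9% of all. For the brightest Mbp probe set, 1456228_x_at, the interval ran from -1.56 to 1.61 log2 around a difference of 0.02.

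**Figure D3:**
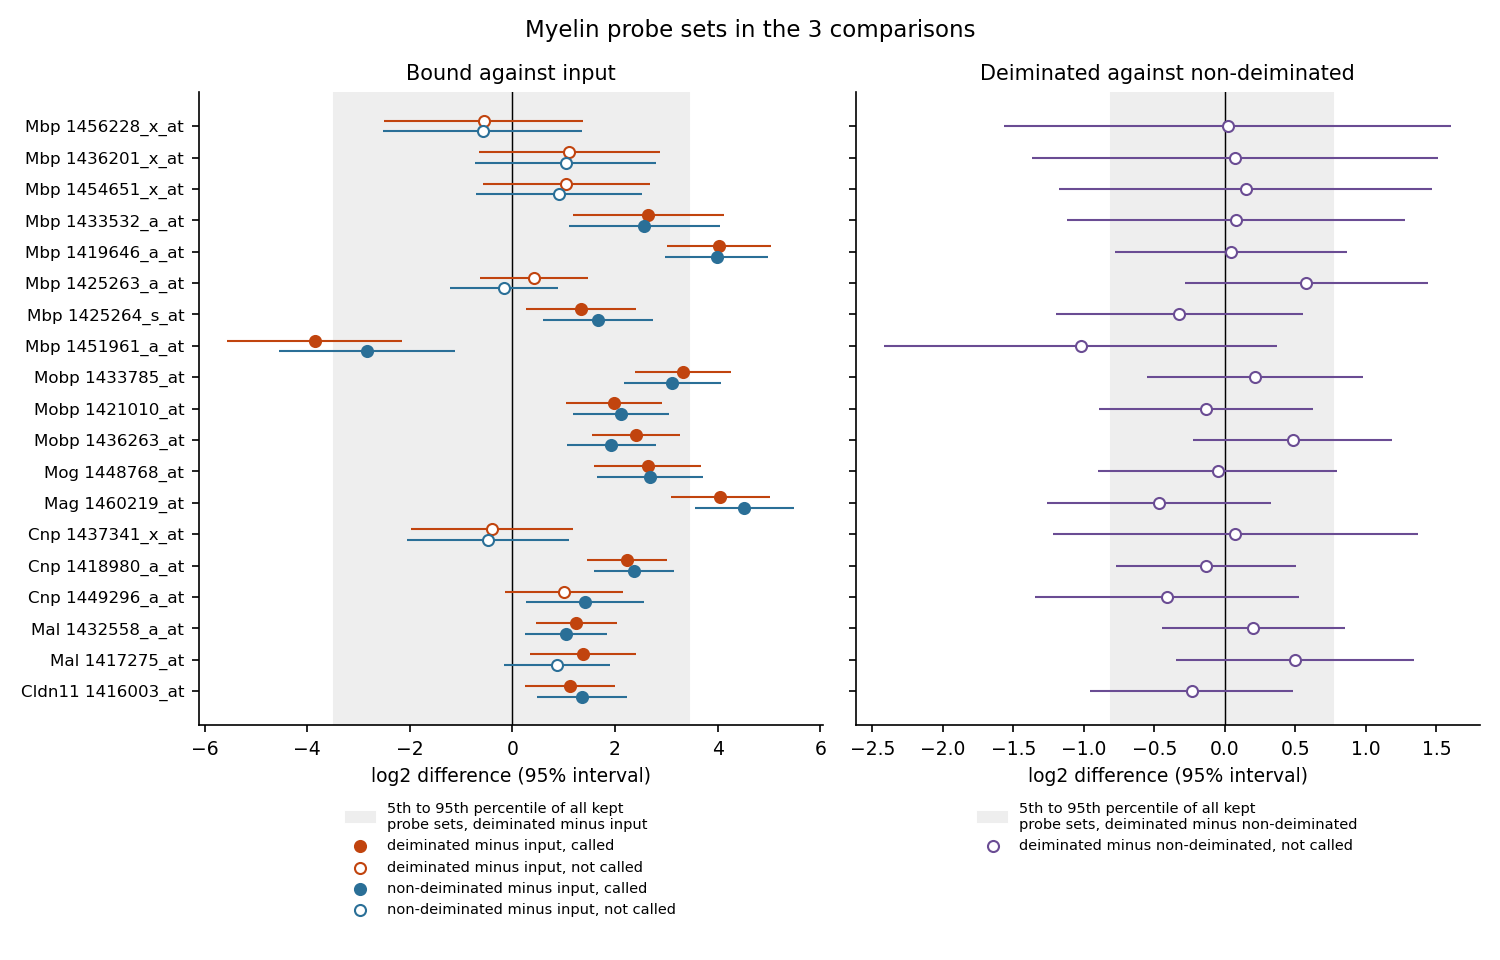
Log2 differences of the 19 probe sets past the filter, with limma's 95% intervals as bars. The left panel gives deiminated minus input and non-deiminated minus input and the right panel deiminated minus non-deiminated, filled points are called, and grey bands span the 5th to the 95th percentile of all kept probe sets (of deiminated minus input on the left). On the left 12 points per protein are called above 0 and 1 below, and on the right no point is called.

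The level of the hybridisation controls moved with several of these values. At the 3 Mbp _x_at probe sets the array with the higher controls was over 2-fold higher in both groups. At 1456228_x_at, for example, the log2 difference between the arrays of a group was 1.25 for deiminated and 1.96 for non-deiminated RNA. This was 3 of the 19 probe sets (15.8%), all of 1 gene, beside 2.97% of all kept probe sets. Mbp 1451961_a_at went the other way, at -1.83 for deiminated and -1.18 for non-deiminated RNA, a direction that was not counted over all probe sets. Comparing the proteins only between arrays of like control level gave 0.38 at the lower and -0.34 at the higher level for Mbp 1456228_x_at, and -0.04 and 0.13 for Mbp 1419646_a_at. For Mobp 1436263_at it gave 0.58 and 0.38, and for Mag -0.22 and -0.72, so these kept their sign at both levels. Cldn11, by contrast, had 0.28 at the lower and -0.75 at the higher level. Each of these rests on 1 array against 1, and the part of the control level in the differences was not tested. The arrays compared at each level also carry different protein names in their titles. At the lower level the deiminated array is titled MA-Brent-1 and the non-deiminated one REFP2, and at the higher level the names are reversed. Deimination and protein name therefore cannot be told apart within a level.

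The profile most like that of Mbp was sought among 13054 other genes, over the 5 arrays, by the root mean square difference between log2 profiles centred on their own means. The Mbp profile was that of 1456228_x_at. The nearest were 4831440E17Rik (0.10), Hspa8 (0.16), Rps29 (0.18), Cnp (0.18) and 4930592A05Rik (0.20). Hspa8 encodes a constitutive heat shock chaperone and Rps29 a protein of the small ribosomal subunit. Hspa8 read 12226 and 22542 with the deiminated protein, 8858 and 29017 with the non-deiminated protein and 21387 in input RNA, with the same high and low arrays as Mbp. Hspa8, Rps29 and Cnp were each given by an _x_at probe set. Cnp stood at rank 4, whereas Mal stood at 5692, Cldn11 at 6006, Mog at 10486, Mobp at 11728 and Mag at 12778.

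The 5 further lists cover other myelin membrane genes, myelin lipid synthesis, lineage transcription factors, oligodendrocyte precursors and the transport or processing of Mbp RNA. Whether their genes are expressed mainly in oligodendrocytes was not examined. In each list, more genes were called higher than lower against input with each protein at the deposited scaling. That also holds over all genes, of which 29.5% were called higher and 22.4% lower for deiminated RNA and 29.2% and 21.3% for non-deiminated RNA, so the order alone says nothing particular of the lists. Among 23 other genes of the myelin membrane, 10 were called higher and 2 lower for deiminated RNA and 11 and 2 for non-deiminated RNA, with a median of 0.78 and 1.38. Its brightest genes were all called higher with both proteins. Bcas1, a marker of newly myelinating oligodendrocytes, differed from input by 2.57 ± 0.53 for deiminated and 2.37 ± 0.53 for non-deiminated RNA. Cryab, a small heat shock protein abundant in oligodendrocytes, differed by 2.26 ± 0.49 and 2.14 ± 0.49. Gpm6b, a membrane glycoprotein gene also expressed in neurons, differed by 3.28 ± 0.43 and 3.11 ± 0.43.

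Among 16 genes of myelin lipid synthesis, 7 were called higher and 2 lower for deiminated RNA and 7 and 0 for non-deiminated RNA, with a median of 0.75 and 0.62. Relative to all genes this median lay 0.64 higher for deiminated and 0.49 higher for non-deiminated RNA, but 0.077 and -0.18 under quantile normalisation and 0.092 and -0.14 under cyclic loess, where 3 were called higher and 4 lower for deiminated and 4 and 4 for non-deiminated RNA. The fatty acid desaturase gene Scd2 had 8091 and 10532 with the deiminated protein, 7331 and 9726 with the non-deiminated protein and 516 in input RNA, a gain of 4.15 ± 0.48 for deiminated (adjusted p = 3.49e-05) and 4.02 ± 0.48 for non-deiminated RNA (adjusted p = 4.56e-05). The cholesterol synthesis genes Hmgcs1 (2.53 ± 0.57 and 2.27 ± 0.57) and Fdft1 (1.74 ± 0.47 and 1.56 ± 0.47) were called higher as well. Of 11 transcription factors of the lineage, 3 were called higher and 0 lower with each protein, at a median of 0.25 and 0.34. Olig1, which directs oligodendrocyte differentiation, was one of them at 2.37 ± 0.39 and 2.31 ± 0.39, and so was Zeb2 at 1.98 ± 0.41 and 1.72 ± 0.41. Myrf, which activates myelin genes, was not called, at 0.89 ± 0.41 for deiminated and 0.34 ± 0.41 for non-deiminated RNA.

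Among 15 genes of precursors and newly formed oligodendrocytes, 6 were called higher and 2 lower for deiminated RNA and 8 and 2 for non-deiminated RNA, with a median of 1.04 and 0.97. Fyn, a kinase that promotes local translation of Mbp mRNA, was called higher at 1.04 ± 0.37 and 0.97 ± 0.37, as was the receptor phosphatase gene Ptprz1 at 1.40 ± 0.36 and 1.27 ± 0.36. Cnksr3 was called lower at -1.22 ± 0.40 and -1.04 ± 0.40. Of 15 genes whose products transport or process Mbp RNA, 8 were called higher and 1 lower for deiminated RNA and 9 and 0 for non-deiminated RNA, with a median of 1.04 and 1.20. The lists share genes: Fyn is in this list and the precursor list, and its 1.04 is the deiminated median of both. Tppp is in this list and among the other myelin membrane genes. Under cyclic loess 4 were called higher and 4 lower with each protein. Its brightest genes were not among the gains. The RNA-binding protein genes Hnrnpk (-1.36 ± 0.73 and -1.43 ± 0.73) and Hnrnpf (-1.18 ± 0.50 and -1.25 ± 0.50) and the motor gene Kif1b (-0.37 ± 0.62 and -0.56 ± 0.62) had negative differences that were not called. Between the proteins 0 genes of any of these lists were called.

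Neuronal and astrocyte markers were counted beside the same shares over all genes. Of 15 neuronal markers, 12 were called higher and 0 lower for deiminated RNA and 11 and 0 for non-deiminated RNA, with a median of 1.78 and 1.75. Under quantile normalisation 7 were called higher and 1 lower for deiminated RNA and 7 and 2 for non-deiminated RNA, and under cyclic loess 6 and 1, and 6 and 2. Their summed signal was 27673 and 31853 with the deiminated protein, 26820.1 and 28941 with the non-deiminated protein and 13667 in input RNA. Rbfox3, the gene of the neuronal nuclear antigen NeuN, was called higher at 2.64 ± 0.45 and 2.52 ± 0.45, while Camk2a, at -1.02 ± 0.53 and -1.20 ± 0.53, was not called. Of 11 astrocyte markers, 6 were called higher for deiminated and 7 for non-deiminated RNA, with 0 lower and a median of 1.56 and 1.61. Their summed signal was 31239.6 and 36358 with the deiminated protein, 29121 and 35582 with the non-deiminated protein and 7837 in input RNA. The neuronal median exceeded that of all genes by 1.66 for deiminated and 1.63 for non-deiminated RNA, but by 0.35 and 0.18 under quantile normalisation and 0.63 and 0.65 under cyclic loess. The astrocyte median exceeded it by 1.44 and 1.49, by 1.03 and 1.17 under quantile normalisation and by 0.66 and 0.74 under cyclic loess. Under cyclic loess 5 astrocyte markers were called higher and 1 lower with each protein. The gap junction gene Gja1 was called higher at 3.21 ± 0.49 and 3.10 ± 0.49, as was Aldoc at 2.79 ± 0.44 and 2.80 ± 0.44. Slc1a3, at 0.59 ± 0.51 and 0.51 ± 0.51, was not called.

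The lists were not tested against the 7 myelin genes. The summed signal of the 7 genes was 30839 and 58227 with the deiminated protein, 24599.6 and 69935 with the non-deiminated protein and 49333 in input RNA, most of it from the brightest Mbp and Cnp probe sets. Schwann cells make the myelin of peripheral nerves, and of 6 of their markers 0 were called higher and 2 lower with each protein, at a median of -0.67 and -0.73. Over all genes, 29.5% were called higher and 22.4% lower for deiminated RNA, and 29.2% and 21.3% for non-deiminated RNA. Their summed signal was 1118 and 1239 with the deiminated protein, 1027 and 1239 with the non-deiminated protein and 1635 in input RNA. All values come from RNA labelled as total RNA from brain, which is not resolved by cell type. The differences from input compare RNA eluted from the protein with the starting RNA, and do not measure how many cells of a type there were.

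**Figure D4:**
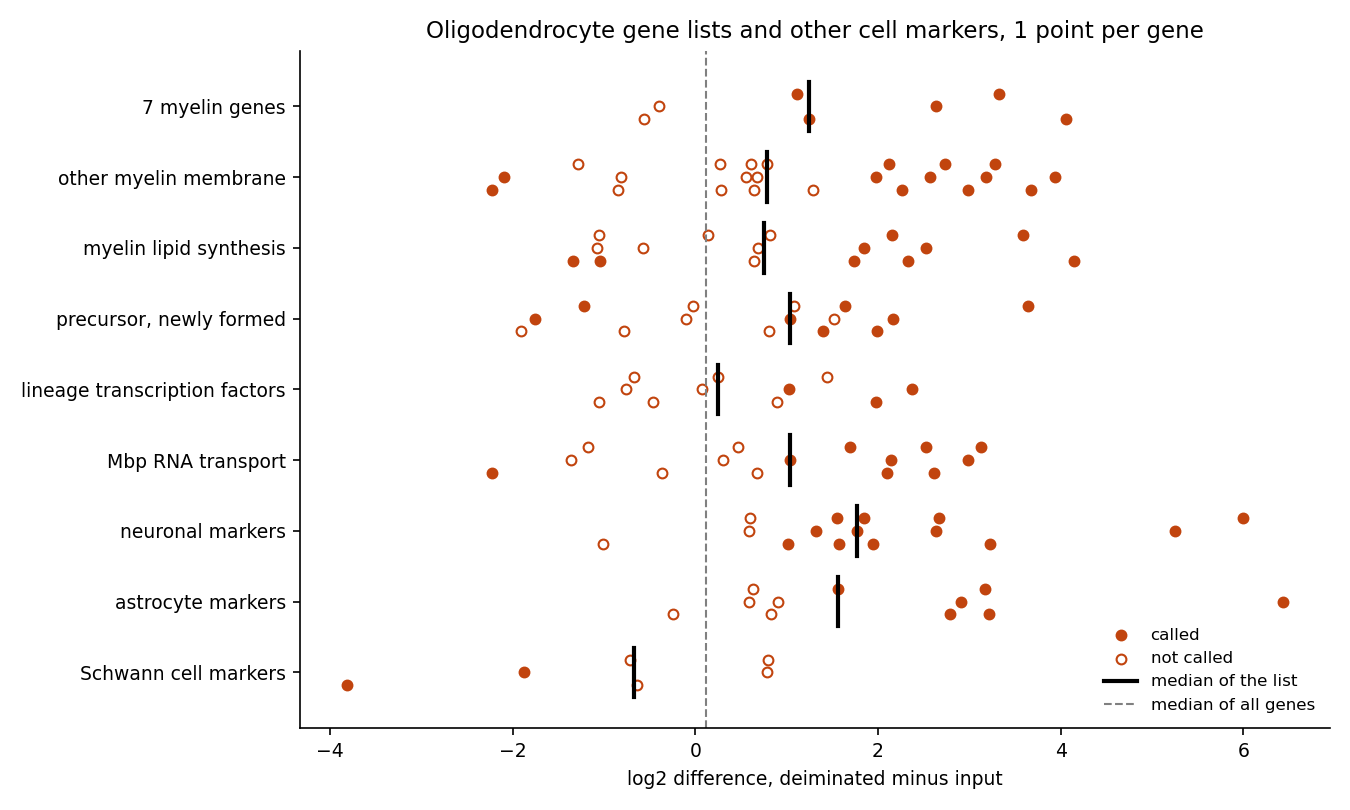
Log2 difference, deiminated minus input, of each gene of 9 lists, 1 point per gene at its probe set of highest mean signal. Filled points are called, black bars mark list medians and the dashed line is the median of all genes (0.11). The median bars of the neuronal markers (1.78), the astrocyte markers (1.56) and the 7 myelin genes (1.25) lie right of that line, and that of the Schwann cell markers (-0.67) lies left of it.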

How the data were processed

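The authors deposited linear signal intensities, 1 per probe set and array, and the submitters' processing notes name MAS5 without a version. No detection calls were used. 64 control probe sets were set apart. Of the other 45037, the filter kept the 27022 at or above the 40th percentile of mean log2 signal (5 arrays), which cover 13055 genes. Before log2, a pseudocount of 4.18 was added, which is the overall median signal divided by 10. Probe sets were named from the platform annotation, and all 21 member Entrez identifiers carried the same symbol in the gene table. limma 3.58.1 in R 4.3.3 (lmFit, eBayes with a trend) fitted the means of 3 groups with 2 residual and 10.91 prior degrees of freedom, giving the 1 input array the spread of the bound arrays. Benjamini-Hochberg adjustment ran over all kept probe sets. The model was tested on simulated data.

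The 7 genes and the other gene lists were chosen with earlier results of these data known. All member probe sets are named. Of each list, the 3 genes with the highest mean signal are the ones that could be named, and microglial, endothelial and red blood cell lists are in the closing section. Alternatives covered the pseudocount, filter, scaling between arrays, variance trend, bound arrays alone, a block for the protein name, the control level as a covariate, and leaving out each bound array.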

Additional observations from a re-analysis of the deposited data

How the results depend on the processing

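The arrays, 2 per bound group and 1 of input, limit every value, and signal over background was not used. Of the 13 probe sets called against input for deiminated RNA, 5 stayed called under every alternative (Mag, Mog, Mbp 1419646_a_at, Mobp 1433785_at and Mobp 1436263_at), and 10 kept their sign. For non-deiminated RNA 6 stayed called (Mag, Mog, Mbp 1419646_a_at, Mbp 1425264_s_at, Mobp 1433785_at and Cnp 1418980_a_at), and 11 kept their sign. The number called ran from 9 to 17 for deiminated RNA and from 9 to 15 for non-deiminated RNA against input, and it was 0 in every setting between the proteins. No paired analysis was possible because the labels give the groups no shared replicate numbers, and those used here follow sample order. A block for the protein name in the titles left 0 members called between the proteins, and 10 higher and 1 lower against input with each. The control level as a covariate was not run against input.

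Scaling and the signal filter both shifted the direction of calls over the whole array. Of the calls for deiminated RNA against input, 48.4% were higher. The share was 65.4% under quantile normalisation, 90.3% under median centring and 100% under scaling to the hybridisation controls, 30.8% without the filter and 64.6% with the stricter filter. The number of calls was 13925, against 6027 with control scaling, 21261 without the filter and 9226 without deiminated replicate 1. Between the proteins 24 probe sets were called without non-deiminated replicate 1 and 2 without replicate 2, and 0 otherwise. The median of all probe sets for deiminated RNA, -0.21, moved to 0.51 under quantile normalisation, 1.29 under median centring and 5.23 under control scaling. The member median exceeded it by 1.55 at first and by 1.63 under quantile normalisation. Median centring and control scaling shift each array by 1 constant, so they cannot change this excess. Under cyclic loess the excess was 0.75. For non-deiminated RNA the excess was 1.60, against 1.31 under quantile normalisation and 0.94 under cyclic loess.

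These differences changed sign, and the cause was not tested. Cyclic loess gave, for deiminated RNA against input, Cldn11 -0.083, Mal 1432558_a_at -0.11, Mbp 1425263_a_at -0.20, Mbp 1436201_x_at -0.56 and Mbp 1454651_x_at -0.62. For non-deiminated RNA it gave Mal 1432558_a_at -0.28, Mbp 1436201_x_at -0.53 and Mbp 1454651_x_at -0.67. Between the proteins it gave Cnp 1437341_x_at -0.017, Mbp 1419646_a_at -0.020, Mbp 1433532_a_at -0.013, Mbp 1436201_x_at -0.027 and Mbp 1456228_x_at -0.085. Control scaling gave, for deiminated RNA, Cnp 1437341_x_at 5.04, Mbp 1451961_a_at 1.58 and Mbp 1456228_x_at 4.88. For non-deiminated RNA it gave Cnp 1437341_x_at 4.99, Mbp 1425263_a_at 5.30, Mbp 1451961_a_at 2.64 and Mbp 1456228_x_at 4.89, and between the proteins Mbp 1456228_x_at -0.011. Median centring gave, for deiminated RNA, Cnp 1437341_x_at 1.09 and Mbp 1456228_x_at 0.94, for non-deiminated RNA Cnp 1437341_x_at 0.94, Mbp 1425263_a_at 1.25 and Mbp 1456228_x_at 0.84, and between the proteins Mog 0.026. Quantile normalisation gave Mbp 1456228_x_at 0.75 for deiminated and 0.76 for non-deiminated RNA, and Mbp 1425263_a_at 0.47 for non-deiminated RNA. Between the proteins it gave Mbp 1419646_a_at -0.092, Mbp 1433532_a_at -0.094, Mbp 1436201_x_at -0.10 and Mbp 1456228_x_at -0.012. With the control level as a covariate Mbp 1456228_x_at was -2.18e-05 between the proteins. Averaging all kept probe sets of a gene gave Cnp 0.94 and Mbp 0.77 for deiminated RNA, Cnp 1.10 and Mbp 0.82 for non-deiminated RNA, and Cnp -0.16 and Mbp -0.051 between the proteins.

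Added after the data were seen, the medians of all the gene lists relative to all genes were recomputed under the other scalings. Median centring and control scaling cannot change these relative medians. Under quantile normalisation and cyclic loess only that of myelin lipid synthesis for non-deiminated RNA changed sign, to -0.18 and -0.14.

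Leaving out 1 array at a time gave, against input, -0.82 to 0.016 for Cnp 1437341_x_at and -1.18 to 0.065 for Mbp 1456228_x_at with deiminated RNA. With non-deiminated RNA it gave -1.27 to 0.32 for Cnp 1437341_x_at, -0.65 to 0.32 for Mbp 1425263_a_at and -1.56 to 0.40 for Mbp 1456228_x_at. Between the proteins it gave -0.55 to 0.078 for Cldn11, -0.72 to 0.87 for Cnp 1437341_x_at, -0.020 to 1.01 for Mal 1417275_at, -0.23 to 0.32 for Mbp 1419646_a_at, -0.55 to 0.70 for Mbp 1433532_a_at, -0.79 to 0.93 for Mbp 1436201_x_at, -0.59 to 0.88 for Mbp 1454651_x_at, -0.96 to 1.00 for Mbp 1456228_x_at, -0.48 to 0.21 for Mobp 1421010_at and -0.24 to 0.14 for Mog.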

Other observations

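Markers of 3 further cell types were counted in the same way. Over all genes, 29.5% were called higher and 22.4% lower for deiminated RNA, and 29.2% and 21.3% for non-deiminated RNA. Of 9 microglial markers, 3 were called higher and 0 lower for deiminated RNA and 3 and 1 for non-deiminated RNA, with a median of 0.37 and -0.04. Among them, the receptor gene Csf1r was called higher at 1.33 ± 0.42 and 1.06 ± 0.42, the protease gene Ctss at 2.56 ± 0.39 and 2.44 ± 0.39, and the complement gene C1qb (-0.32 ± 0.41 and -0.38 ± 0.41) was not called. Of 8 endothelial markers, 2 were called higher and 4 lower for deiminated RNA and 2 and 3 for non-deiminated RNA, with a median of -0.81 and -0.61. The transporter gene Slco1a4 read 381 and 308 with the deiminated protein, 391 and 257 with the non-deiminated protein and 12.1 in input RNA, a called gain of 4.41 ± 0.46 for deiminated and 4.30 ± 0.46 for non-deiminated RNA. The tight junction gene Cldn5, a relative of Cldn11, had 0.37 ± 0.39 and 0.50 ± 0.39 and was not called. Of 4 red blood cell genes, 1 was called higher and 2 lower with each protein, with a median of -2.20 and -2.11. The beta-globin gene Hbb-b2 was not called (-1.74 ± 0.96 and -1.66 ± 0.96), and the anion exchanger gene Slc4a1 was called lower at -2.67 ± 0.59 and -2.57 ± 0.59. Alas2 went the other way and was called higher at 1.80 ± 0.68 and 1.75 ± 0.68.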
